A study of Mus musculus with 2 samples.

Results

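The lysosome is the acidic compartment in which macrophages break down what they engulf. Its lumen holds acid hydrolases, its membrane holds heavily glycosylated proteins and transporters, and its acidity is made by the vacuolar proton pump (V-ATPase), a rotary machine that uses ATP to drive protons inward. Many genes for these parts share promoter elements read by the TFE family of transcription factors, TFEB, TFE3 and MITF. The 45 genes described here were chosen by symbol from 34745 gene identifiers of an RNA sequencing table: 19 hydrolases and their cofactors, 8 membrane proteins, 15 pump subunits or accessory proteins, and 3 TFE factors. All 45 were found in the table, and 44 of them reached a mean of 1 FPKM (fragments per kilobase, scaled to the library total), the filter used for every count of genes below. Tfeb was the member that did not.

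The cells were primary macrophages derived from C57BL/6 bone marrow and treated with lipopolysaccharide (LPS), the bacterial component sensed by TLR4. The Control-ASO library came from cells transfected with a control antisense oligonucleotide (ASO), and the AclyE14-ASO library from cells transfected with an ASO named for Acly. Both groups had the LPS treatment, so no untreated cells enter the comparison, and the labels give no number of mice and no dose or duration of LPS. Each group was 1 library, so no test between the conditions was run, no difference has a replicate check, and differences between cultures are part of every value.

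The libraries held 14215397 (Control-ASO) and 12751076 (AclyE14-ASO) gene counts. The level of Acly itself was 13.3 (Control-ASO) and 7.35 FPKM (AclyE14-ASO), or 0.553-fold by counts. Of 12 macrophage markers all 12 passed the filter, with 3 higher (Cd14, Itgam and Fcgr1) and 2 lower (Cebpa and Aif1) in the AclyE14-ASO library. Their median log2 ratio of FPKM + 1 was -0.08, with 6 above 0 and 6 below. The summed level was 2367 and 3806 FPKM, with Cd14 the most abundant. Csf1r was at 64.7 and 50.7 FPKM, Itgam at 9.12 and 43.2 FPKM and Cd14 at 1020 and 2270 FPKM. Cebpa was at 6.76 and 2.46 FPKM and Aif1 at 3.36 and 1.76 FPKM. Fibroblast and stromal markers differed between the libraries: 12 of 16 passed the filter, all 12 of them were higher, and their summed level was 60.2 FPKM in the Control-ASO and 262 FPKM in the AclyE14-ASO library, with Postn at 0 and 5 counts. Of the neutrophil, lymphocyte, dendritic and endothelial markers 2 of 10, 1 of 10, 1 of 7 and 2 of 6 passed the filter, and of the erythroid, megakaryocyte and mast cell markers 1 of 9. S100a8 was at 19.7 and 41.4 FPKM and Fscn1 at 2.74 and 16.7 FPKM, while S100a9, Ly6g, Cd3e, Flt3 and Hba-a1 were at 0 counts in both libraries.

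A gene was called higher or lower at 1.5-fold or more on the log2 scale of FPKM + 1, with the AclyE14-ASO library set against Control-ASO, a scale that understates the change of low genes. Count ratios are relative to library totals and have no pseudocount. Their 95% intervals are exact (Clopper-Pearson) and cover counting error only. Of the 44 members that passed the filter, 9 were higher and 9 lower. These are 20.5% each, where 7.03% of all 8658 genes that passed were higher and 8.48% lower. Members were abundant, with a median of 80.7 FPKM against 5.91 FPKM over all genes that passed, but among genes of 10 FPKM or more the shares were similar, at 6.76% and 9.28%. The counting interval lay wholly beyond 1.5-fold for 8 of the 9 higher and 6 of the 9 lower members. Over all 45 members, called or not, it did so for 8 on the higher and 8 on the lower side. The latter include Tfe3, not called, and Tfeb, below the filter. Of all genes that passed, called or not, the interval lay wholly beyond 1.5-fold, in either direction, for 11.9%. In these bulk libraries, fewer cells that express a gene and less RNA per cell cannot be told apart.

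The classes differed in direction. Hydrolases and cofactors had a median log2 ratio of 0.16, with 5 of 19 higher and 1 lower. Membrane proteins had a median of 0.19, with 3 of 8 higher and 2 lower. Pump genes had a median of -0.33, with 1 of 15 higher and 6 lower. Both TFE factors that passed the filter had negative log2 ratios. The median over all genes that passed was -0.13, so the pump lay below it and the first 2 classes above it. Summed over members, all 45 genes took 4.70% of the counts in the Control-ASO and 4.81% in the AclyE14-ASO library. Without Lyz2, the most abundant member, the other 44 took 3.46% and 3.26%, so the direction of the total rests on that gene.

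The lower calls depend on scaling. When the ratios were centred on the median of all genes whose mean reached 5 FPKM, 10 members were higher and 3 lower, and with TMM factors (trimmed mean of M values) 9 were higher and 4 lower. The shares of all genes moved too, to 9.83% higher and 4.69% lower after centring and to 8.67% and 5.84% with TMM factors. For the pump the number lower was 2 after centring and 3 with TMM factors, while its median stayed negative at -0.20 and -0.23. The higher calls of the hydrolases and membrane proteins were 6 and 3 after centring and 5 and 3 with TMM factors. Both scalings raised the log2 ratio of every member, so they could remove lower calls but no higher ones.

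**Figure D1:**
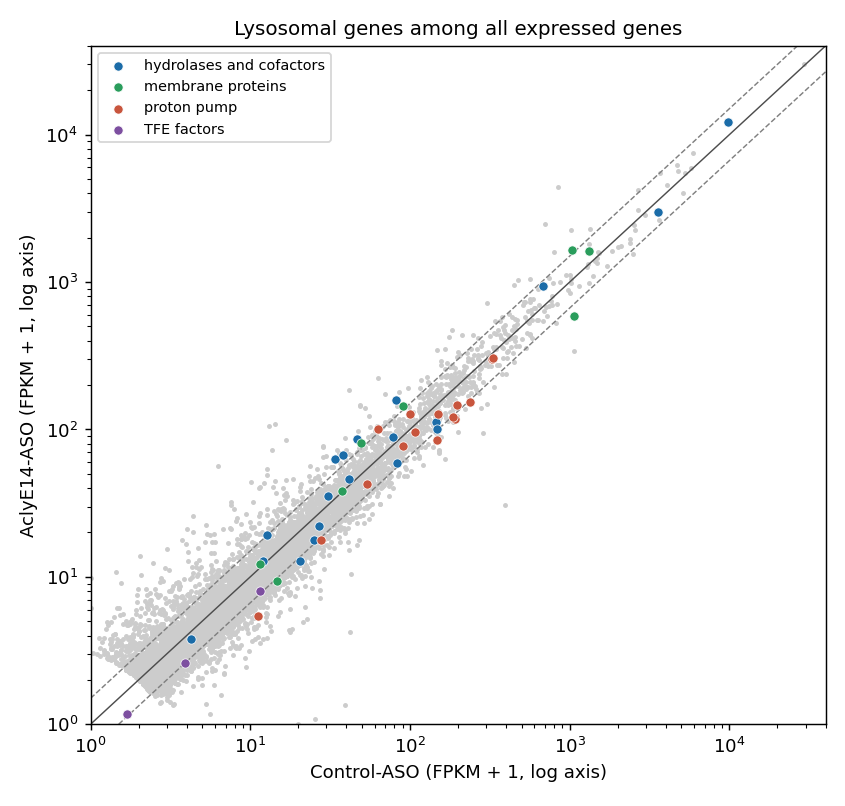
Level in the AclyE14-ASO library (FPKM + 1, log axis) against level in the Control-ASO library (same scale), 1 point per gene with a mean of at least 1 FPKM in grey and the 45 lysosomal genes in colour by class. The solid line marks equal levels and the dashed lines 1.5-fold. Pump genes lie mostly below the solid line, and the 9 higher and 9 lower members lie outside the dashed lines.

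Tfeb and Tfe3 were low, and Mitf lay above the median of all genes that passed the filter. Tfeb, the master regulator of lysosomal genes in many cells (chromosome 17, 47737030 to 47792419, plus strand, GRCm38), was at 0.702 FPKM from 92 counts in the Control-ASO library and 0.170 FPKM from 20 counts in the AclyE14-ASO library. Its count ratio was 0.242 (interval 0.141 to 0.396), the smallest of the 45. Tfe3, which binds the same elements, was at 2.90 and 1.62 FPKM from 852 and 426 counts, a ratio of 0.557 (0.495 to 0.627). Mitf, the member best known from melanocytes and osteoclasts, was at 10.6 and 7.06 FPKM from 1523 and 913 counts, a ratio of 0.668 (0.615 to 0.726).

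All 3 factors were thus lower by counts, Tfeb and Tfe3 beyond 1.5-fold with their whole intervals. On FPKM + 1, Tfe3 (log2 ratio -0.58) and Mitf (-0.52) stayed just inside the 1.5-fold limit, and Tfeb did not pass the filter. By count ratio, whatever the interval, 14.4% of all genes that passed the filter, a set without Tfeb, were lower by 1.5-fold. Whole intervals lay beyond 1.5-fold, in either direction, for 11.9% of that set. Both Tfe3 and Tfeb have long gene models (20656 and 9219 bases behind the FPKM), which makes their FPKM small for their counts.

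The element read by TFE factors is an E-box with the core CACGTG, and longer forms of it are known as the CLEAR motif. Promoter windows from RefSeq (GRCm38.p6, 250 bases before to 50 after the annotated start) were at hand for 39 of the 45 genes, and both strands were searched. Galns, Asah1, Atp6v1b2, Atp6v1c1, Atp6v1g1 and Atp6v1h had no window. CACGTG is its own reverse complement. It occurred in the windows of 11 of these 39 genes (28.2%), against 8.09% of 27025 genes with a window and 12.3% of the 6707 of them that passed the expression filter. The form TCACGTG, which contains the core, was found in the same number of members, 11 (28.2%), against 4.29% of all genes and 7.53% of expressed genes. A match is a description of letters and not a bound site.

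Members with the core are shown because they lie on both sides of the comparison: Lamp1 (higher), Mcoln1 (lower), and Glb1 and Atp6v0b (within 1.5-fold). Capitals mark CACGTG. Each stretch runs 5′ to 3′ on the gene's own strand and stops before the first annotated exon base, so a second CACGTG of Mcoln1, 45 bases before the RefSeq start, is not included.
Lamp1, chr8:13159080-13159160, plus strand: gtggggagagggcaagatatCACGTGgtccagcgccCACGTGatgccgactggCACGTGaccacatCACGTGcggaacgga
Mcoln1, chr8:3500428-3500456, plus strand: ttagaaagggtcgcgcttgtCACGTGttc
Glb1, chr9:114401010-114401075, plus strand: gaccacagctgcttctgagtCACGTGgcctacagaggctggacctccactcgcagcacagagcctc
Atp6v0b, chr4:117887334-117887385, minus strand: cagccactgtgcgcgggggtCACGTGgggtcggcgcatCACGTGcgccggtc

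Lamp1 held 4 copies in the stretch shown and Atp6v0b held 2. The 11 genes with the core were Gla, Gaa, Glb1, Naglu, Lamp1, Mcoln1, Cln3, Atp6v0b, Atp6v0d1, Atp6v0e and Atp6v1a. Of them 2 were higher (Lamp1 and Atp6v0e), 2 lower (Mcoln1 and Atp6v1a) and 7 within 1.5-fold. Their log2 ratios ran from -0.79 to 0.68 with a median of -0.24. The 27 genes without the core that passed the filter had 5 higher, 4 lower and a median of -0.15. Having no window, Galns and Asah1 (both higher), Atp6v1b2, Atp6v1c1 and Atp6v1h (all lower) and Atp6v1g1 are in neither group. The log2 ratios of the genes without the core ran from -1.04 to 0.95, a wider range that holds that of the genes with it. A part of the core in the ratios was not tested.

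**Figure D2:**
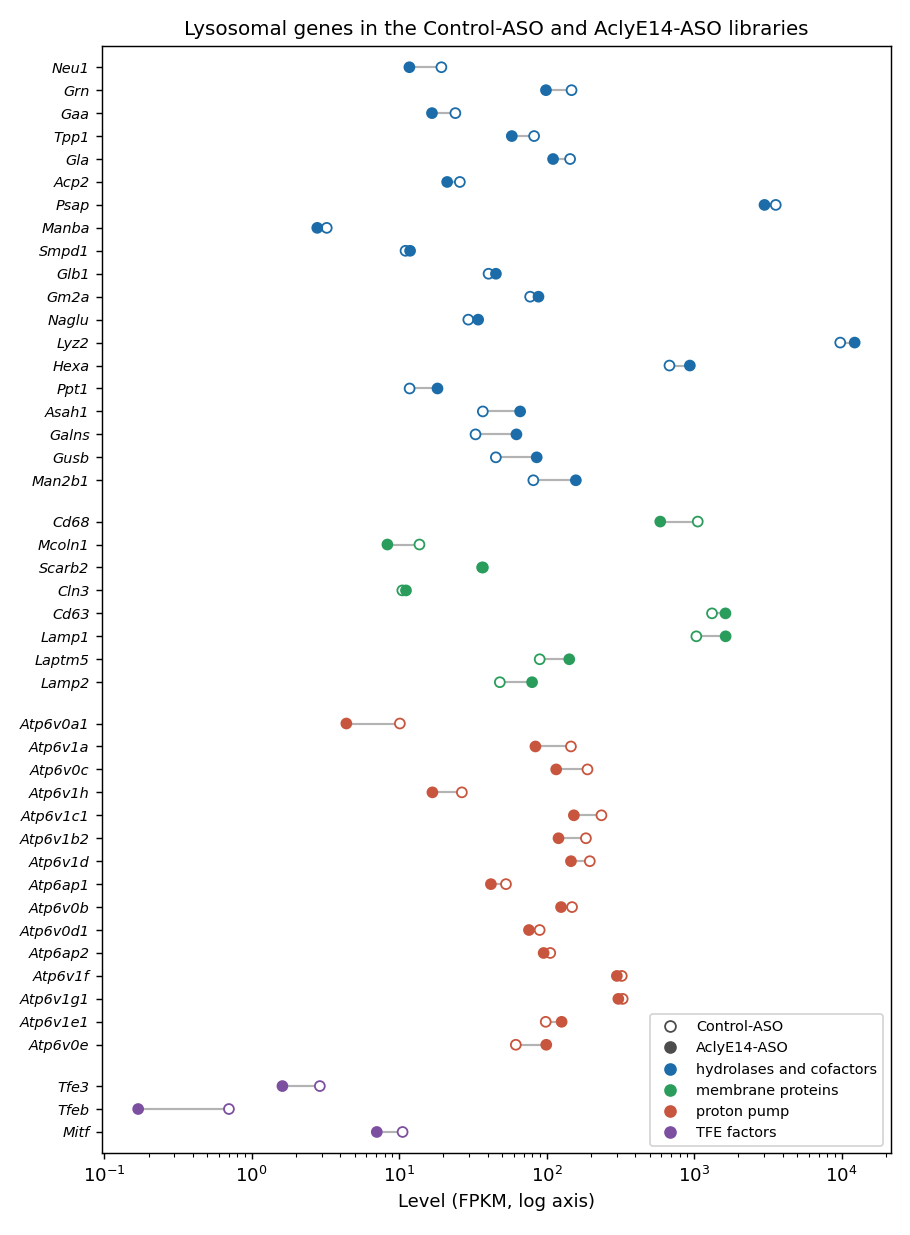
Level of each of the 45 genes (FPKM, log axis) in the Control-ASO library (open circle) and the AclyE14-ASO library (filled circle), grouped and coloured by class and ordered by log2 ratio within a class. Filled circles lie to the right for Man2b1, Gusb, Galns, Asah1 and the LAMP genes and to the left for Cd68, Atp6v0a1, Atp6v1a and the 3 TFE factors.

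Of the hydrolases, Man2b1, Gusb and Galns had the largest positive ratios. Man2b1, lysosomal alpha-mannosidase (chromosome 8, 85083270 to 85098282, plus strand), was at 81.3 FPKM in the Control-ASO and 158 FPKM in the AclyE14-ASO library. Its count ratio of 1.94 (1.88 to 2.01) and log2 ratio of 0.95 were the highest of all members. Gusb, beta-glucuronidase (chromosome 5, 129989011 to 130003049, minus strand), was at 45.3 and 85.7 FPKM, and Galns, the sulfatase for galactosamine-6-sulfate in keratan and chondroitin sulfate, at 33.0 and 62.5 FPKM. Both had count ratios of 1.89, with intervals of 1.83 to 1.96 and 1.76 to 2.03. Each of the 3 enzymes was near the 2-fold limit, but on FPKM + 1 no member was past it on the higher side, where 3.18% of all genes that passed the filter lay.

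Other enzymes of glycan breakdown among the members lay within the limit or were lower. Naglu, which cleaves N-acetylglucosamine from heparan sulfate, was at 29.5 and 34.4 FPKM, and Manba, beta-mannosidase, was scarce at 3.23 and 2.79 FPKM. The sialidase Neu1 (chromosome 17, 34931253 to 34935953, plus strand) was the hydrolase called lower, at 19.4 and 11.7 FPKM, and its count ratio was 0.607 (0.559 to 0.658). After centring its log2 ratio of -0.55 was inside the limit. In the lysosome NEU1 works in a complex with beta-galactosidase and the protective protein cathepsin A. Glb1, the beta-galactosidase, was at 40.4 and 45.4 FPKM, and Ctsa, the protective protein, at 57.7 and 85.6 FPKM. The 3 partners thus had count ratios of 0.607, 1.12 and 1.48. Glb1 shares 165 annotated exon bases with Tmppe, and the 2 genes summed had a ratio of 1.03.

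Enzymes and cofactors of sphingolipid breakdown lay on both sides. Asah1, acid ceramidase, was called higher, at 37.0 and 66.2 FPKM and a count ratio of 1.79 (1.71 to 1.88). Hexa, the alpha subunit of beta-hexosaminidase, was at 681 and 936 FPKM, a log2 ratio of 0.46 that reached 0.59 and the 1.5-fold limit after centring. Smpd1, acid sphingomyelinase, was at 11.1 and 11.9 FPKM, with an interval of the count ratio (0.927 to 1.24) that includes no difference. Gla, alpha-galactosidase A, had the opposite sign, at 144 and 111 FPKM (ratio 0.766, 0.738 to 0.796).

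The 3 genes grouped as cofactors lay within the limit. Psap, the precursor of the saposins, was the second most abundant member at 3580 and 3004 FPKM, and its count ratio was 0.839 (0.833 to 0.844). Gm2a, the GM2 activator, was at 77.4 and 88.1 FPKM. Grn, the progranulin gene, whose product is cleaved to granulins in the lysosome, was at 148 and 99.1 FPKM, a log2 ratio of -0.57 just inside the 1.5-fold limit. Of all genes that passed the filter, 9.09% had a log2 ratio below that of Grn.

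The remaining luminal enzymes were likewise split. Ppt1, palmitoyl-protein thioesterase, was at 11.8 and 18.2 FPKM, and its log2 ratio of 0.59 was just past the limit. The counting interval of Ppt1 spans the limit (1.42 to 1.68), and 129 bases of its annotated exons overlap those of Cap1 on the opposite strand. No source states whether counting used the strand. Summed with the far larger Cap1 (8780 and 6762 counts), the ratio was 0.926, a sum that mostly reflects Cap1. Tpp1, a tripeptidase that like Ppt1 is mutated in Batten disease, was at 82.3 and 58.1 FPKM (ratio 0.706, 0.672 to 0.742).

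Gaa, the acid alpha-glucosidase that degrades glycogen, was at 24.1 and 16.7 FPKM, and Acp2, lysosomal acid phosphatase, at 25.8 and 21.2 FPKM. Both were lower in the AclyE14-ASO library but within 1.5-fold. Lyz2, the macrophage lysozyme, was the most abundant member at 9798 and 12276 FPKM, higher by 25.3% in counts (interval of the ratio 1.24 to 1.26). Its near copy Lyz1 held 172 and 334 counts, and reads may be split between them. Without Lyz2 and Psap, the summed level of the other 17 genes of the class was 1495 and 1827 FPKM. Most of that difference lay in Hexa, the most abundant of the 17, at 681 and 936 FPKM and within the limit. The stromal markers, at 60.2 and 262 FPKM in sum, were higher in the same library as the higher hydrolases, and their part in this was not tested.

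**Figure D3:**
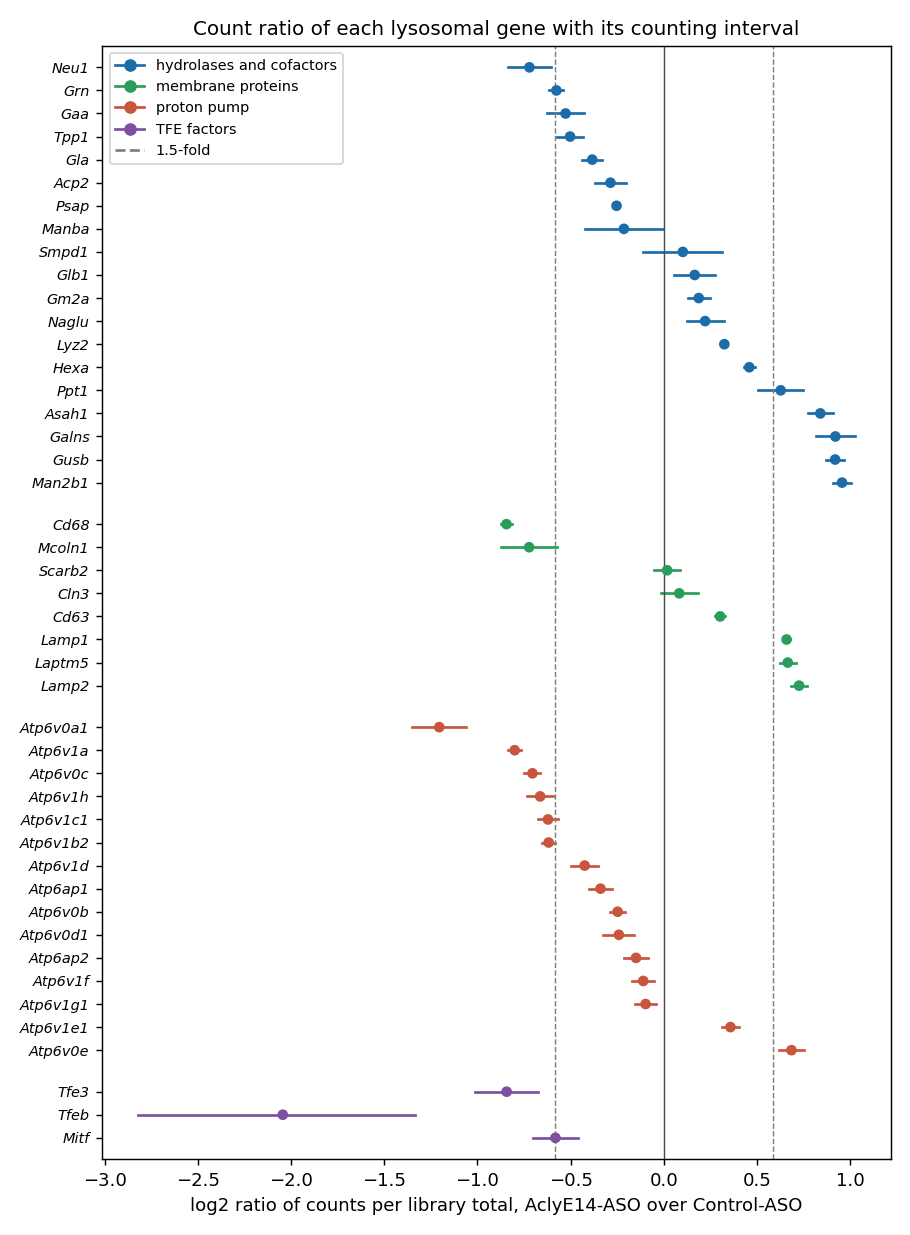
Count ratio of each gene relative to library totals (log2 axis, AclyE14-ASO over Control-ASO) with its exact 95% counting interval as a horizontal bar, coloured by class. Solid and dashed vertical lines mark no difference and 1.5-fold. Tfeb, with 92 and 20 counts, has the widest interval and the lowest ratio.

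The 2 main glycoproteins that line the lysosomal membrane were higher. Lamp1 (chromosome 8, 13159161 to 13175338, plus strand) was at 1036 and 1637 FPKM, and its count ratio was 1.58 (1.56 to 1.60). Lamp2, whose splice forms take part in autophagosome fusion and chaperone-mediated autophagy, was at 48.2 and 79.7 FPKM, for a count ratio of 1.65 (1.60 to 1.71). Laptm5, a lysosomal membrane protein of blood cells, was at 89.8 and 142 FPKM, for a count ratio of 1.59 (1.54 to 1.64). These 3 genes were the membrane members called higher, while stromal markers (60.2 and 262 FPKM in sum) were higher in the same library, and their part was not tested.

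Cd68, the macrosialin, a LAMP-related protein used as a macrophage marker, went the other way. It was at 1059 FPKM in the Control-ASO and 590 FPKM in the AclyE14-ASO library (chromosome 11, 69664213 to 69666153, minus strand), a ratio of 0.557 (0.546 to 0.568). Mcoln1, the TRPML1 cation channel that releases lysosomal calcium, was also lower, at 13.7 and 8.33 FPKM, for a count ratio of 0.606 (0.546 to 0.672) with an interval that spans the limit and a log2 ratio of -0.53 after centring. The LAMP genes and Cd68 therefore moved in opposite directions. In the order of levels, Cd68 was close to Lamp1 in the Control-ASO library and far below it in the AclyE14-ASO library.

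The other membrane members lay within 1.5-fold. Cd63, a tetraspanin of late endosomes and exosomes, was at 1324 and 1633 FPKM. A processed copy, Cd63-ps, is listed with 6050 and 6477 counts beside 19399 and 21467 for Cd63, so reads may be split between the 2 loci. Scarb2, a membrane protein also known as LIMP-2, was at 36.5 and 37.0 FPKM, and Cln3, another Batten disease protein, at 10.5 and 11.1 FPKM. The intervals of the count ratios of Scarb2 (0.965 to 1.06) and Cln3 (0.989 to 1.13) include no difference. Cln3 overlaps Apobr on the opposite strand by 442 bases, and summed with it the ratio was 0.860.

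Pump genes were lower as a group on the scale of the library totals. Of the 15 genes 13 had a log2 ratio below 0 and 11 lay below the median gene, as 50% of all genes do. Over all genes that passed the filter 35.1% lay above 0, and 2 of the 15 pump genes did. Their summed level was 2199 FPKM in the Control-ASO and 1812 FPKM in the AclyE14-ASO library. By counts the sum had a ratio of 0.774. The shift was uneven among subunits, as the levels of each subunit gene show.

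The V1 sector is the soluble part that hydrolyses ATP, and its core is a ring of alternating A and B subunits. Atp6v1a, the catalytic A subunit (chromosome 16, 44085402 to 44139705, minus strand), was at 146 and 84.0 FPKM, and its count ratio was 0.574 (0.560 to 0.589). Atp6v1b2, the B subunit, was at 185 and 120 FPKM, for a count ratio of 0.652 (0.636 to 0.668). Both subunits of the ring were thus called lower, and B was nearer the limit.

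The V1 subunits C and H, which join the ring to the membrane sector or regulate it, were lower as well. Atp6v1c1, the C subunit, which is released when the pump comes apart, was at 236 and 153 FPKM, for a count ratio of 0.650 (0.625 to 0.676). Atp6v1h, the H subunit, which keeps free V1 from hydrolysing ATP, was at 26.6 and 16.8 FPKM, for a count ratio of 0.631 (0.601 to 0.663). After centring, the log2 ratios of Atp6v1b2, Atp6v1c1 and Atp6v1h were -0.49, -0.49 and -0.50, inside the limit, while Atp6v1a at -0.66 stayed past it.

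Subunits of the central and peripheral stalks differed less. Atp6v1d and Atp6v1f, which form the central rotor stalk, were at 196 and 146 FPKM and at 323 and 299.7 FPKM. Of the peripheral stalks, Atp6v1g1 was at 328 and 307 FPKM and was the most abundant pump gene, and Atp6v1e1 was at 98.7 and 126 FPKM. Atp6v1e1 was the V1 member with a positive ratio, 1.28 by counts (1.24 to 1.32). So the 4 stalk genes lay within 1.5-fold and the 4 genes of the ring and its regulators did not, on this scale. After centring, Atp6v1f and Atp6v1g1 had slightly positive log2 ratios, 0.019 and 0.032.

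In V0, the membrane sector that carries the protons, the genes also diverged. Atp6v0a1, an a subunit (chromosome 11, 101009452 to 101063719, plus strand), was at 10.1 FPKM from 1393 counts and 4.39 FPKM from 542 counts. Its count ratio was 0.434 (0.392 to 0.479), and its log2 ratio of -1.04 was the lowest of the members that passed the filter and the 1 ratio more than 2-fold lower, where 1.55% of all genes lay. Among all genes that passed, 1.36% had a lower log2 ratio. Atp6v0c, the proteolipid that builds most of the rotating c ring, was at 189 and 116 FPKM, for a count ratio of 0.614 (0.595 to 0.632), and after centring its log2 ratio of -0.57 was just inside the limit.

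The rest of V0 was not called lower. Atp6v0b, the related proteolipid of the ring, was at 149 and 125 FPKM, and Atp6v0d1, which couples the ring to the stalk, at 89.8 and 76.0 FPKM. Their count ratios, 0.842 (0.818 to 0.867) and 0.846 (0.799 to 0.896), were below 1 but within 1.5-fold. Atp6v0e, a small membrane subunit (chromosome 17, 26663231 to 26699647, plus strand), was the pump gene called higher, at 61.9 and 99.5 FPKM, for a count ratio of 1.61 (1.54 to 1.68). The accessory proteins of the pump lay within the limit, Atp6ap1 at 53.0 and 41.9 FPKM and Atp6ap2, also known as the prorenin receptor, at 106 and 95.5 FPKM. In V0 the ratios therefore ran from 0.434 to 1.61.

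Several subunits have paralogues, and the levels show which of them these macrophages used. Tcirg1, the a3 subunit of osteoclasts and macrophages, made up 91.4% and 94.9% of the summed FPKM of the 4 a subunit genes, and Atp6v0a1 5.61% and 2.88%. Tcirg1 was at 165 and 145 FPKM (count ratio 0.879, 0.859 to 0.899), so the large difference of Atp6v0a1 lay in a minor form, and the summed a subunit genes were at 180 and 153 FPKM. Atp6v0a2 was at 5.46 and 3.36 FPKM. Atp6v0d2, the d subunit of osteoclasts and macrophages, exceeded Atp6v0d1 at 213 and 204 FPKM. Atp6v1b1, Atp6v1c2 and Atp6v1e2, forms known from kidney or testis, were at 0 counts in both libraries, where 0 counts allow up to 3 counts per library.

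**Figure D4:**
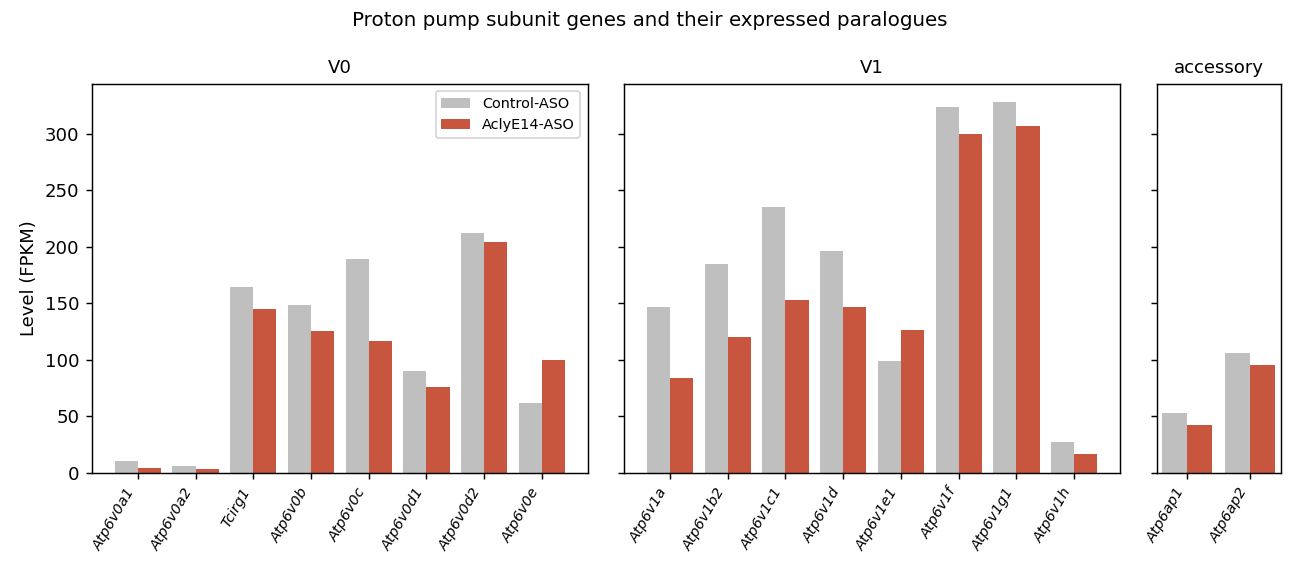
Level (FPKM) of pump subunit genes and their expressed paralogues in the Control-ASO (grey) and AclyE14-ASO (red) libraries, by sector, 1 library per bar. Red bars are visibly shorter for Atp6v0c, Atp6v1a, Atp6v1b2 and Atp6v1c1, and taller for Atp6v0e and Atp6v1e1.

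The members called lower in the pump tended to have long gene models. Across the 15 pump genes the log2 ratio and the length behind the FPKM had a rank correlation (Spearman) of -0.55, over genes of the same 2 libraries. The 6 lower genes had a median length of 7640 bases and the 8 within the limit 2439 bases. Over 8636 genes that passed the filter the same correlation was -0.07, and the median log2 ratio was -0.09 in genes of up to 3351 bases and -0.15 in genes of 6679 bases or more. With this trend over all genes removed, 5 pump genes were lower. The trend over all genes is weak, so its removal could change few calls, whatever the part of length within the pump. The share of length in the differences between subunits was not tested.

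**Figure D5:**
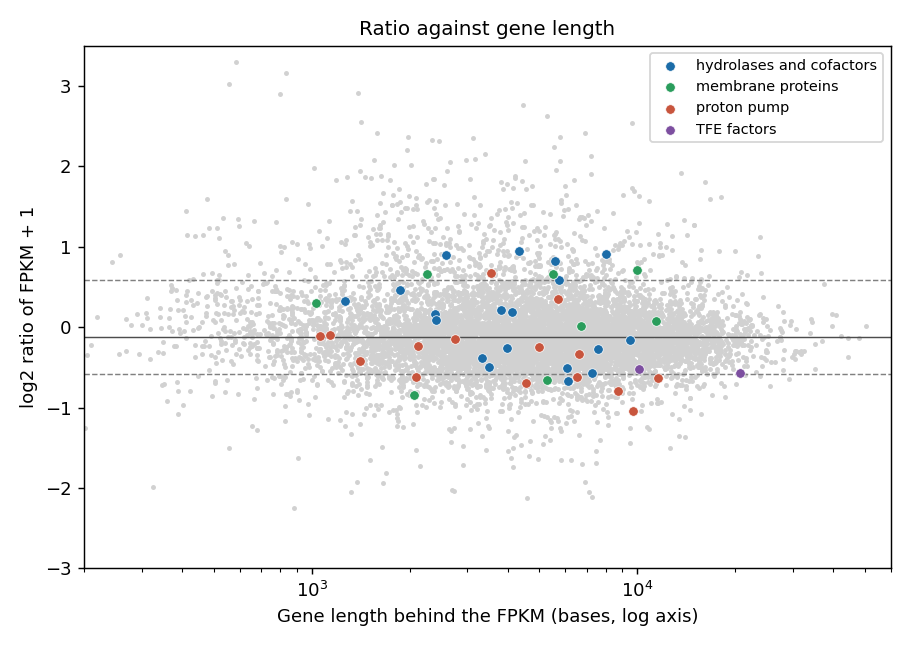
Log2 ratio on FPKM + 1, AclyE14-ASO relative to Control-ASO, against the gene length behind the FPKM (bases, log axis), with all genes of 1 FPKM or more in grey and the lysosomal genes that passed the filter in colour. The solid line is the median gene at -0.13 and the dashed lines 1.5-fold. Among the 3 pump genes of 6679 bases or more (Atp6v0a1, Atp6v1a and Atp6v1h) the median is -0.79, the value of Atp6v1a. Of the genes of other classes with 6679 bases or more, Tfe3, Mitf, Grn, Acp2 and Manba lie below the line. Lamp2, Gusb, Cln3 and Scarb2 lie above it.

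Other genes of the lysosome were counted from lists chosen with earlier results of these data known. Of 118 listed genes 102 passed the filter, 4 were higher and 11 lower, and the median log2 ratio was -0.18. These are 3.92% and 10.8%, against 7.03% and 8.48% of all genes. Further hydrolases and luminal proteins had a positive median, 0.17 over 25 genes, close to that of the hydrolase members. Of them 3 were higher: Lipa, the acid lipase (61.8 and 224 FPKM, ratio 3.62, 3.47 to 3.79), Acp5, tartrate-resistant acid phosphatase (146 and 344 FPKM), and Smpdl3a (129 and 208 FPKM). Hgsnat, which acetylates heparan sulfate with acetyl-CoA during its breakdown, was lower at 46.9 and 16.8 FPKM (ratio 0.359, 0.326 to 0.394), as was Hyal2 (2.88 and 1.15 FPKM). Npc2, the sterol carrier, was the most abundant at 1013 and 1053 FPKM. By count ratio, with no pseudocount, 7 of the 26 listed in this group were higher by 1.5-fold and 2 lower. Sgsh, below the filter, is among the 7. Of all genes that passed, 9.38% were higher and 14.4% lower on that scale.

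Transporters and other membrane proteins of the lysosome had 0 of 20 higher and 5 lower, beside 7.03% and 8.48% of all genes, with a median of -0.22. Mfsd12, which carries cysteine into lysosomes, was at 101 and 51.6 FPKM (ratio 0.512, 0.490 to 0.535), and Ctns, which carries cystine out, at 5.29 and 2.39 FPKM. The chloride-proton exchanger Clcn7 was lower as well, at 110 and 72.5 FPKM. At the other end, Npc1 was at 11.9 and 15.7 FPKM, and Laptm4a, the most abundant, at 181 and 229 FPKM, both within the limit.

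Of the other V-ATPase genes 7 of 15 passed the filter, and all 7 had negative log2 ratios, 6 of them below the median gene. Wdr7, a partner of the pump's assembly factors, was at 5.84 and 2.86 FPKM. It was the one called lower (14.3% of the 7, against 8.48% of all genes). Regulators of TFE factors at the lysosome had a median of -0.24. Of these 20 genes 0 were higher and 1 was lower (5%), against 7.03% and 8.48% of all genes. That gene was Rragd, a Rag GTPase that is itself a TFE target (3.28 and 1.73 FPKM). Flcn, the activator of RagC and RagD, was at 5.48 and 3.34 FPKM, Lamtor1, the most abundant, at 87.7 and 71.5 FPKM, Rraga at 18.1 and 20.8 FPKM, and Tfec, a further family member found in macrophages, at 3.92 and 4.75 FPKM.

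Genes that sort hydrolases to the lysosome and genes of autophagy completed the lists. Of 13 sorting genes 1 was higher and 2 were lower, or 7.69% and 15.4% against 7.03% and 8.48% of all genes. The median of the sorting genes, -0.10, turned to 0.027 after centring. M6pr, the cation-dependent mannose-6-phosphate receptor, was at 109 and 69.2 FPKM (ratio 0.632, 0.610 to 0.656), Gga2, an adaptor for these receptors, at 3.02 and 1.17 FPKM, Vps26a of the retromer at 27.3 and 41.9 FPKM, and Lman1 at 4.21 and 5.49 FPKM. Of 17 autophagy genes 0 were called, where 7.03% of all genes were higher and 8.48% lower. The median of the autophagy genes was -0.23. Sqstm1, the cargo receptor p62, was at 384 and 355 FPKM, Uvrag at 9.25 and 5.98 FPKM, Atg9a at 3.05 and 1.88 FPKM, Becn1 at 6.53 and 7.43 FPKM, and Gabarap at 144 and 180 FPKM.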

How the data were processed

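The authors deposited 1 table with raw gene counts and FPKM values for 1 library per group, per the file headers. The submitters' processing notes list mm10, HISAT2, edgeR and StringTie 1.3.0 with no role for any of them. The columns of the AclyE14-ASO library carry a shorter name than its title and were matched to it by that name. For genes above 20 counts, 1 count was worth 1.11 times more FPKM in the AclyE14-ASO library, which is the ratio of the count totals, so the deposited FPKM carry no further scaling. Symbols were matched by identifier to GENCODE M21 (GRCm38) for 34267 of 34745 identifiers, and positions are from that annotation. Identifiers without a symbol held 0.175% and 0.136% of the counts.

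The log2 ratio of FPKM + 1 was taken over genes whose mean reached 1 FPKM. With 1 library per group no test was run. TMM factors came from edgeR 4.0.16, all else from Python 3.11.15 and SciPy 1.17.1, tested on simulated counts. Alternatives changed pseudocount, filter, scaling and size limit. Removal of length and GC trends, and sums with overlapping genes or copies, were chosen after seeing the data. The genes named are all 45 members, Acly, and per list the most abundant gene and up to 2 at each end, with Clcn7, Smpdl3a, Ctsa and the pump paralogues named after their values were seen. Members and lists were chosen with earlier results of these data known.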

Additional observations from a re-analysis of the deposited data

How the results depend on the processing

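No paired analysis was possible because each group has 1 library. The numbers of members called higher were within 1.5 times of those reported under every scaling, filter, pseudocount and trend setting, and at 2-fold 0 were higher, in each class, and 1 (a pump gene) was lower. At a lower limit, 0.32 on the log2 scale, 17 of the 44 members that passed the filter and 26.7% of all genes were lower. Among these members were 5 hydrolases and cofactors and 2 TFE factors. Of the 15 pump genes 2 were higher at this limit, where 14.2% of all genes were higher. Centring gave 3 lower members, with 0 hydrolases, 1 membrane protein and 2 pump genes, and medians of 0.29 for hydrolases and cofactors, 0.32 for membrane proteins, -0.20 for the pump and -0.42 for TFE factors. TMM factors gave 4 lower members, with 0, 1 and 3 in those classes, and medians of 0.26, 0.29, -0.23 and -0.47. Centring raises every log2 ratio by the same constant. TMM factors scale the FPKM before the pseudocount is added, so their shift, also upward, is smaller in genes of low level. Neither scaling could therefore remove a higher call. A pseudocount of 5 FPKM left 0 hydrolases and 1 membrane protein lower and moved the TFE median to -0.31. With a pseudocount of 0.1 FPKM, or with counts and no pseudocount, 1 TFE factor (Tfe3) was lower and the TFE median was -0.69 or -0.71. Summing overlapping genes moved the hydrolase median to 0.035 and turned Ppt1 to -0.11, since Cap1 holds most of that sum. The sorting list's median turned to 0.027 after centring. With 1 library per group, depth sets only the counting error.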
